A study of Mus musculus with 36 samples.

Results

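Acsbg1 and 6 other genes for enzymes that load fatty acids onto coenzyme A (Acsl1, Acsl3, Acsl4, Acsl5, Slc27a2 and Slc27a4) were described in mouse intestinal organoids. The genes were chosen by symbol and matched to the Ensembl identifiers of the count tables, and Acsbg1 was picked for its large rise in these same libraries. All 7 were found among the 52636 genes listed and all 7 passed the filter on low counts, which left 15497 genes for testing. Each had a mean level of at least 0.5 CPM (read counts scaled to a common library size, after trimmed-mean scaling between libraries) over the 36 libraries, the level below which a gene was taken as not detected. Among the genes of the same family, Acsm5 stood just above that level at 0.527 CPM and Slc27a6 just below it at 0.378 CPM.

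The organoids were grown from C57BL/6 jejunal crypts, and RNA was sequenced from 36 cultures in 6 groups of 6. All cultures received either a control immunoglobulin (IgG) or an antibody to Ptk7, a Wnt co-receptor. Complete media + IgG was the base condition, and QCM + IgG held medium conditioned by quiescent mouse embryonic fibroblasts. Medium conditioned by senescent fibroblasts was given with IgG or with the antibody (SCM + IgG, SCM + anti-Ptk7). Complete media with Wnt5a, a ligand of noncanonical Wnt signaling, was likewise given with either (Wnt5a + IgG, Wnt5a + anti-Ptk7). The antibody was not combined with complete media or QCM in the libraries analysed, and organoids of this kind hold epithelium without stroma, blood or microbes. The labels do not say which cultures came from the same mouse, so p-values measure the spread between these cultures. Total counts per library ran from 9581589 to 21029769 with a median of 13490071.

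Long-chain fatty acids enter metabolism only after an acyl-CoA synthetase joins them to coenzyme A, at the cost of ATP. The product can then be built into triglycerides and phospholipids, oxidised in mitochondria or peroxisomes, or elongated, and the family members differ in chain length preference and in the membrane they sit on. In the absorptive cells of the small intestine this step precedes the re-synthesis of dietary fat into triglyceride. Acsl5 is the main long-chain form of the gut epithelium, Acsl1 is best known from liver, heart and fat, Acsl3 works at the endoplasmic reticulum and on nascent lipid droplets, and Acsl4 prefers arachidonic acid. Slc27a2 and Slc27a4 encode the fatty acid transport proteins FATP2 and FATP4, which have synthetase activity for very long chains, and Acsbg1 encodes the bubblegum-type synthetase known mainly from brain, adrenal gland and testis.

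The 7 genes lie apart on 6 chromosomes of the mouse genome (GRCm38). Acsbg1 (ENSMUSG00000032281) spans chr9:54604877-54661870 on the minus strand, Acsl3 (ENSMUSG00000032883) spans chr1:78657825-78707743 on the plus strand and Slc27a2 (ENSMUSG00000027359) spans chr2:126552407-126588243 on the plus strand. Slc27a4 is on chromosome 2 as well, at chr2:29802634-29817522, whereas Acsl1, Acsl4 and Acsl5 are on chromosomes 8, X and 19. All are protein coding, with merged coding lengths between 1929 bases (Slc27a4) and 2312 bases (Acsbg1). The start regions of the 3 genes on which the results turn are printed here from RefSeq (GRCm38.p6), from 250 bases before to 50 after the start and in the direction of transcription, because these are the genes whose levels differed most between groups. Capitals mark each CG dinucleotide.
Acsbg1: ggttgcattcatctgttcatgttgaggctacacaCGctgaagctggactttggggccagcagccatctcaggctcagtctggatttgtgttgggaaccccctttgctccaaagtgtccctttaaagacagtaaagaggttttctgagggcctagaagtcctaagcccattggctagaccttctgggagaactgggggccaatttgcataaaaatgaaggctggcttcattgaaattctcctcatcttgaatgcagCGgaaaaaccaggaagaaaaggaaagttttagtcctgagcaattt
Acsl3: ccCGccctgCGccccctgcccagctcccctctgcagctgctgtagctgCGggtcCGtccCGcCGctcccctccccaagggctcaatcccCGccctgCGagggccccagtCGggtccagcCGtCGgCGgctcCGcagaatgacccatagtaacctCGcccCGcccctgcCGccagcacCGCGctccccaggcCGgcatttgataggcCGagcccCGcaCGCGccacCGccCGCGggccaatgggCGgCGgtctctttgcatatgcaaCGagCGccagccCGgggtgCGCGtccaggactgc
Slc27a2: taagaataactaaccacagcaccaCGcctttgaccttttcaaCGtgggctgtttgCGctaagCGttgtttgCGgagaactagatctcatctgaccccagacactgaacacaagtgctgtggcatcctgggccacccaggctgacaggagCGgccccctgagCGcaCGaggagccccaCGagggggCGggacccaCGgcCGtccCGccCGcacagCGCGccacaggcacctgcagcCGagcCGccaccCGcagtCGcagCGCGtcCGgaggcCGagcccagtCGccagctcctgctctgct

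These windows lie at chr9:54661836-54662135 (minus strand) for Acsbg1, chr1:78657575-78657874 (plus strand) for Acsl3 and chr2:126552774-126553073 (plus strand) for Slc27a2. The Acsbg1 window held 2 CG dinucleotides and 47% G or C, against 33 and 74% for Acsl3 and 25 and 65.3% for Slc27a2. Over all 32851 mouse promoters of that length the median was 7 CG dinucleotides, and 23.3% held no more than the Acsbg1 window. Of the other members, Acsl4 had 33, Slc27a4 14 and Acsl5 9, and Acsl1 had a window with 30 and another with 4. Motifs were searched on both strands as exact letters. The TEAD core GGAATG was absent from the Acsbg1, Acsl3 and Slc27a2 windows and present in 14.7% of all promoters, and the nuclear receptor half-site AGGTCA was found once, in Slc27a2, against 16.3% of all promoters. CCAAT occurred at 2 places in Acsbg1 and 1 in Acsl3 (37.4% of all promoters hold it), TATAAA was in none of these windows (13.6%), and GGGCGG occurred 5 times in Acsl3 and 2 times in Slc27a2 but not in Acsbg1 (35.7%). Some GGGCGG matches contain CG dinucleotides already counted, and a match is a description of letters only.

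Per kilobase of coding sequence, Acsl5 was the most abundant of the 7 transcripts and Acsbg1 the least when averaged over the 36 libraries. The mean levels were 318 CPM per kilobase for Acsl5, 136 for Acsl3, 58.8 for Slc27a2, 48.5 for Acsl1, 44.4 for Slc27a4, 8.61 for Acsl4 and 6.58 for Acsbg1. The Acsl5 level ranged from 266 to 372 per kilobase over all libraries and that of Acsl3 from 85.7 to 286, so these neighbours overlapped only where Acsl3 was at its highest. Acsl1 (34.8 to 59.4), Slc27a4 (29.6 to 59.7) and Slc27a2 (21.4 to 83.8) did not differ beyond their spread when all libraries were pooled. In complete media, however, Slc27a2 exceeded Acsl1 in 6 of 6 libraries and Acsl1 exceeded Slc27a4 in 6 of 6, whereas in SCM + IgG these counts were 4 of 6 and 2 of 6.

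Acsbg1 was close to the detection limit in complete media and far above it in Wnt5a. In complete media + IgG its level ran from 0 to 1.09 CPM with a median of 0.157, and 3 of 6 libraries had no Acsbg1 count and the highest had 14. In QCM + IgG the range was 0 to 1.68 CPM with a median of 0.732, with 2 of 6 libraries at 0 and at most 25 counts. In SCM + IgG the range was 1.29 to 14.3 CPM (median 7.05) and in Wnt5a + IgG it was 16.8 to 63.8 CPM (median 21.9). Every SCM library was above every complete media library and every Wnt5a + IgG library was above every SCM + IgG library, while SCM and QCM libraries overlapped. The means were 0.312 ± 0.430, 0.716 ± 0.663, 7.59 ± 5.64 and 31.6 ± 18.97 CPM (SD, n = 6 each) in complete media, QCM, SCM and Wnt5a with IgG. By the 0.5 CPM limit Acsbg1 was thus not detected in complete media taken alone.

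The fitted log2 differences of Acsbg1 were 1.24 for QCM, 4.57 for SCM and 6.64 for Wnt5a against complete media, 3.33 for SCM against QCM and 2.07 for Wnt5a against SCM. No test is attached to these values because the gene was picked on them or on the same libraries, and with so few counts in complete media the size of the first 3 is loosely held. Leaving out 1 library at a time moved the QCM difference between 0.79 and 2.34, the SCM difference between 4.26 and 5.70 and the Wnt5a difference between 6.31 and 7.78.

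**Figure D1:**
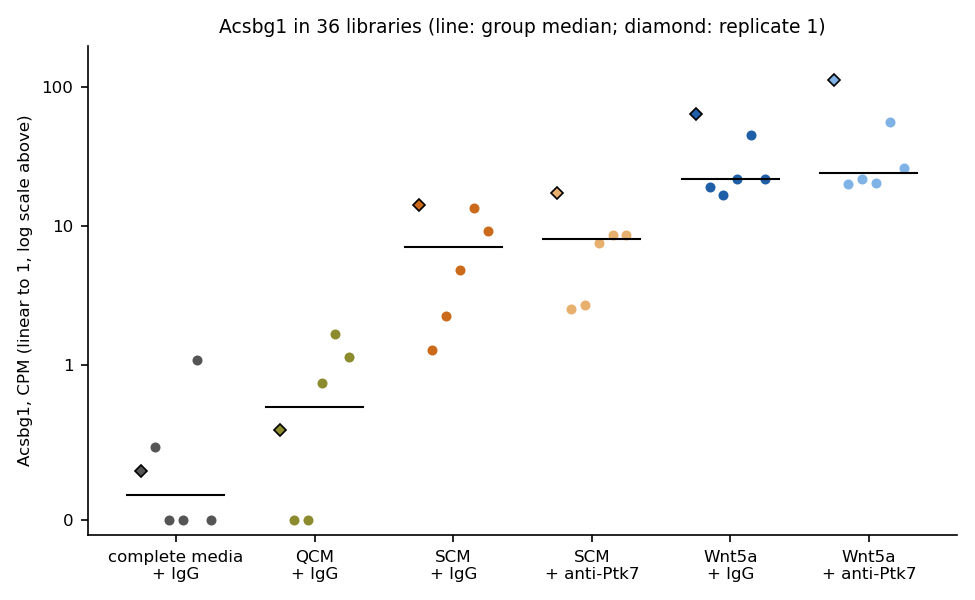
Acsbg1 level (CPM, linear to 1 and log scale above) in each of the 36 libraries by group, where points are libraries, diamonds mark the libraries numbered 1 and lines mark group medians. The medians rise from 0.157 in complete media to 24.1 in Wnt5a + anti-Ptk7, and the diamond is the highest point in the 4 SCM and Wnt5a groups.

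With anti-Ptk7, Acsbg1 levels overlapped those with IgG in both media. In SCM + anti-Ptk7 the libraries ran from 2.53 to 17.4 CPM (median 8.13, mean 7.94 ± 5.43, SD, n = 6), against 1.29 to 14.3 with IgG. In Wnt5a + anti-Ptk7 they ran from 20.1 to 113 CPM (median 24.1, mean 43.1 ± 37.1, SD, n = 6), against 16.8 to 63.8 with IgG. The fitted log2 differences, antibody over IgG, were 0.08 in SCM and 0.45 in Wnt5a, given without a test. They spanned -0.32 to 0.38 and -0.11 to 0.78 when single libraries were left out, so that neither direction held in all of these fits.

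The anti-Ptk7 groups were also set against QCM + IgG and against each other. The fitted log2 difference of Acsbg1 was 3.41 for SCM + anti-Ptk7 and 5.85 for Wnt5a + anti-Ptk7 over QCM + IgG, and 2.44 for Wnt5a + anti-Ptk7 over SCM + anti-Ptk7, and the libraries did not overlap in any of the 3 contrasts. These are values without a test, because Acsbg1 was picked with all groups known and entered the tested genes through the groups where it is high. With single libraries left out they ran from 3.01 to 3.85, from 5.29 to 6.30 and from 1.87 to 2.84, the 1.87 without the Wnt5a + anti-Ptk7 library numbered 1. The few counts in QCM leave the size of the first pair loosely held.

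Within each SCM and Wnt5a group the Acsbg1 level varied several-fold, and the libraries with the same number stood at the same end. The library numbered 1 was the highest in SCM with IgG (14.3 CPM) and with anti-Ptk7 (17.4), and in Wnt5a with IgG (63.8) and with anti-Ptk7 (113). The library numbered 5 was second in these 4 groups, at 13.6, 8.71, 45.7 and 56.7 CPM, and was the highest in complete media (1.09) and QCM (1.68). The highest library exceeded the lowest 11.1-fold in SCM + IgG and 3.81-fold in Wnt5a + IgG.

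In terms of the summed level of the 7 genes per kilobase, Acsbg1 made up 0.0235% in complete media, 0.542% in SCM + IgG and 2.08% in Wnt5a + IgG. It passed Acsl4 in 5 of 6 Wnt5a + IgG libraries and 4 of 6 Wnt5a + anti-Ptk7 libraries, against 1 of 6 in SCM + anti-Ptk7 and none in the other 3 groups. Acsl5 made up 53.9% of the sum in complete media, 52.3% in Wnt5a + IgG and 45.8% in Wnt5a + anti-Ptk7. From complete media to Wnt5a + IgG, Acsl3 went from 16.99% to 22.4% and Slc27a2 from 12.8% to 7.65%, and in Wnt5a + anti-Ptk7 Acsl3 reached 28.1%.

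Marker genes of the cell types that an organoid culture could hold were counted beside these levels. Of 6 tuft cell markers, 5 were detected. By edgeR's quasi-likelihood test with Benjamini-Hochberg adjustment over 15497 genes 3 of these rose in Wnt5a + IgG over complete media (Dclk1, Trpm5 and Avil), where a call was an adjusted p under 0.05 with a change of more than 1.5-fold and 8.29% of all genes were called higher. With voom and limma 2 were called. The summed tuft list ran from 8.18 to 12.2 CPM in complete media, 10.4 to 15.5 in SCM + IgG, 21.997 to 36.9 in Wnt5a + IgG and 20.4 to 46.0 in Wnt5a + anti-Ptk7. The summed list of 6 stem cell markers ran from 1871 to 2488 CPM in complete media, 1172 to 2137 in SCM + IgG and 1076 to 2223 in Wnt5a + IgG. The part of either cell type in the Acsbg1 level was not tested, and in bulk RNA fewer cells of a type and less RNA per cell cannot be told apart. Of 10 fibroblast markers 2 were detected, their sum stayed between 0.997 and 10.7 CPM in all groups, and Col3a1, Dcn and Thy1 were at 0 in all 36 libraries. Of 8 immune markers 3 were detected, and Cd4 and Adgre1 were at 0 in all libraries. The immune sum ran from 13.3 to 22.2 CPM over the 6 groups, and most of it was Foxp3, a transcription factor of regulatory T cells, at 10.3 to 19.8 CPM. The immune markers Ptprc and Cd3e were not detected, with means of 0.0775 and 0.0345 CPM and no count in 32 and 31 of the 36 libraries. No cell type is read from Foxp3 alone. Further, 0 of 6 nerve and glial markers were detected. The 12 enterocyte markers were all detected in these cultures labelled as intestinal organoids, and so were all 6 markers each of Paneth, goblet, enteroendocrine and proliferating cells. By edgeR 2 Paneth markers rose in SCM and 2 in Wnt5a over complete media, and 1 stem cell and 1 enteroendocrine marker fell in each. Over all genes 4.96% were called higher and 1.12% lower in SCM, and 8.29% and 1.88% in Wnt5a. The Paneth list as a whole did not rise in Wnt5a, with median log2 differences of 0.21 in SCM and -0.20 in Wnt5a. Its sum ran from 3808 to 4416 CPM in complete media, 3375 to 4571 in SCM + IgG and 2065 to 3970 in Wnt5a + IgG. The part of these cell types in the levels of the 7 genes was not tested.

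Slc27a2 was the only one of the 6 other genes called against complete media, and it fell. In complete media + IgG its libraries ran from 109.9 to 158.9 CPM with a median of 147, and in SCM + IgG from 55.2 to 108 CPM with a median of 98.7, without overlap. In Wnt5a + IgG they ran from 41.3 to 126 CPM with a median of 99.3, overlapping complete media. The fall was to 0.640-fold in SCM (means 142 ± 18.6 and 91.2 ± 19.1 CPM, SD, n = 6 each, log2 -0.64, SE 0.208, edgeR adjusted p = 0.0381) and to 0.663-fold in Wnt5a (mean 94.3 ± 29.5 CPM, log2 -0.59, SE 0.208, edgeR adjusted p = 0.0371). In SCM this is 1 member of 6 called, against 6.08% of all genes called in either direction and 1.12% called lower. In Wnt5a it is also 1 of 6, against 10.2% of all genes called and 1.88% called lower.

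Both calls, made in the main fit without pairing by number, depended on which libraries were fitted. The SCM call was lost without the SCM + IgG library numbered 1, 5 or 6 or the complete media library numbered 2, 3, 4 or 6, and the Wnt5a call without the Wnt5a + IgG library numbered 1 or 5 or the complete media library numbered 2, 3 or 6. Over all fits that left out 1 library, those that kept the call included, the log2 difference stayed between -0.71 and -0.55 in SCM and between -0.71 and -0.44 in Wnt5a. Over all alternatives, the adjusted p ran from 2.88e-05 to 0.110 in SCM and from 2.99e-05 to 0.111 in Wnt5a.

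The library numbered 1 had the lowest Slc27a2 level in all 6 groups, at 109.9 CPM in complete media, 98.1 in QCM, 55.2 in SCM + IgG and 83.6 with the antibody, and 41.3 in Wnt5a + IgG and 44.3 with the antibody. With all 6 libraries numbered 1 left out, an alternative added after the data were seen, the SCM difference was -0.59 (edgeR adjusted p = 0.000574) and the Wnt5a difference was -0.51 (edgeR adjusted p = 0.00189), the latter short of 1.5-fold. The enterocyte list, whose cells express Slc27a2, held 4 higher and 2 lower of 12 in SCM by the same edgeR calls and 3 higher and 1 lower in Wnt5a. The shares over all genes were 4.96% higher and 1.12% lower in SCM and 8.29% and 1.88% in Wnt5a. The median log2 difference of the enterocyte list was 0.04 in SCM and -0.09 in Wnt5a. Its sum ran from 2862 to 3720 CPM in complete media, 3065 to 4159 in SCM + IgG and 3378 to 4044 in Wnt5a + IgG, and its part in the Slc27a2 level was not tested.

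With the antibody in SCM, Slc27a2 ran from 83.6 to 162 CPM (median 137, mean 132 ± 30.2, SD, n = 6), overlapping both SCM + IgG and complete media. The difference over SCM + IgG was log2 0.54 (SE 0.208, 95% interval 0.11 to 0.96) and did not pass (edgeR adjusted p = 0.164). With the 6 libraries numbered 1 left out it was log2 0.51 with an edgeR adjusted p of 0.0126, still under 1.5-fold, and the adjusted p over all alternatives ran from 0.00210 to 0.371. In Wnt5a + anti-Ptk7 the libraries ran from 44.3 to 127 CPM (median 109.9), and the difference over Wnt5a + IgG was within 1 SE of 0. The difference between the antibody effects was log2 -0.47 (SE 0.294, 95% interval -1.07 to 0.13), also not past the test (edgeR adjusted p = 0.999).

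**Figure D2:**
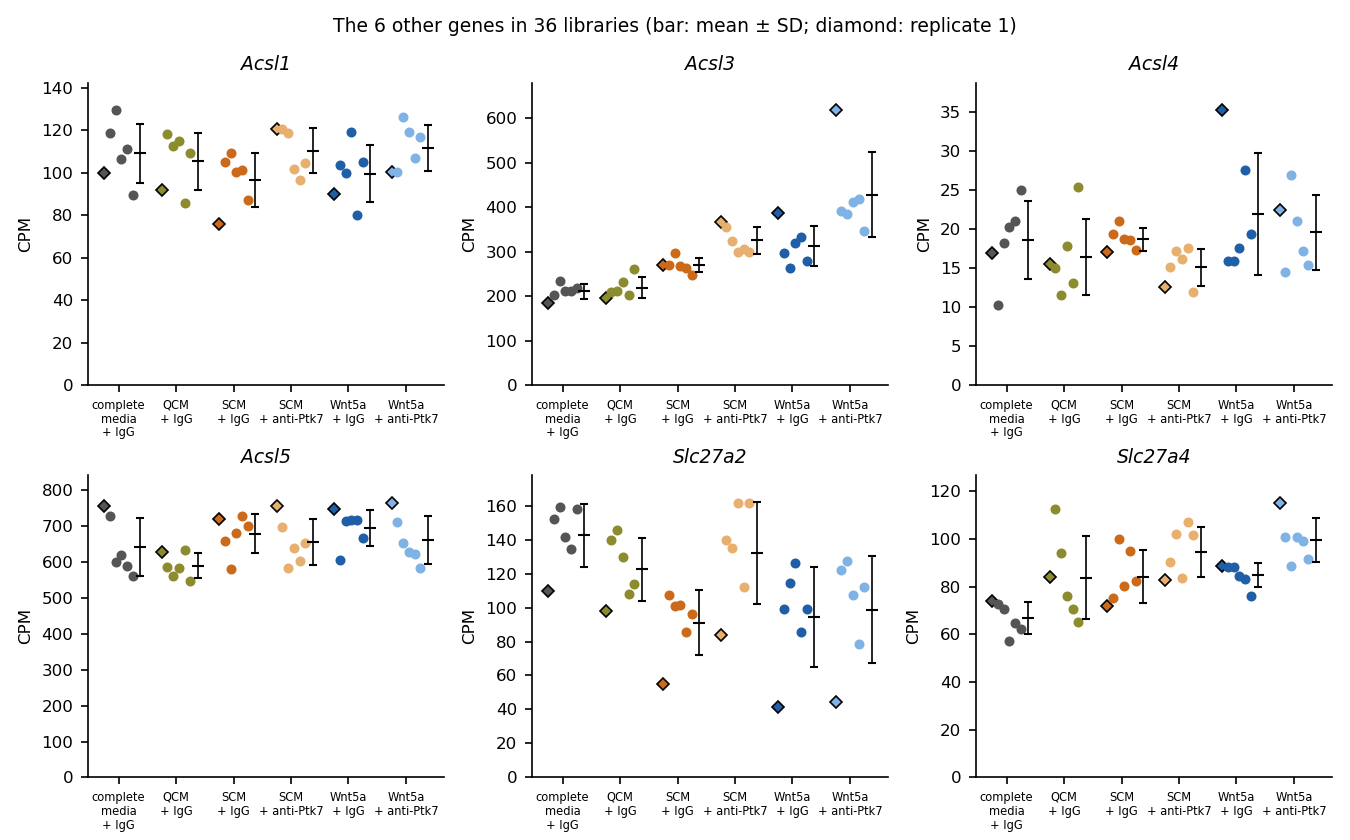
Levels (CPM, linear axes from 0) of the 6 other genes in 36 libraries by group, where points are libraries, diamonds mark those numbered 1 and bars show mean ± SD. Slc27a2 runs from 109.9 to 158.9 CPM in complete media and from 55.2 to 108 in SCM + IgG, and Acsl3 climbs to 347 to 618 CPM in Wnt5a + anti-Ptk7.

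Acsl3 passed the adjusted p in SCM and in Wnt5a against complete media at a change of less than 1.5-fold. Its libraries ran from 185 to 234 CPM in complete media + IgG (median 212), 197 to 261 in QCM + IgG (median 209.8), 247 to 297 in SCM + IgG (median 269) and 263 to 387 in Wnt5a + IgG (median 309.5). No SCM or Wnt5a library overlapped complete media. With the antibody, Acsl3 ran from 299 to 367 CPM in SCM (median 316), above every SCM + IgG library, and from 347 to 618 CPM in Wnt5a (median 402), overlapping Wnt5a + IgG.

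The log2 difference of Acsl3 over complete media was 0.36 in SCM (SE 0.101, edgeR adjusted p = 0.0174) and 0.57 in Wnt5a (SE 0.101, edgeR adjusted p = 9.71e-05). On the adjusted p alone, 7.43% of all genes were higher in SCM and 12.5% in Wnt5a. The Wnt5a value was 1.49-fold and passed the 1.5-fold limit when the complete media library numbered 3 or 5 or the Wnt5a + IgG library numbered 3 or 6 was left out. Antibody over IgG, the log2 difference was 0.27 in SCM (SE 0.101, edgeR adjusted p = 0.144) and 0.45 in Wnt5a (SE 0.101, edgeR adjusted p = 0.0101), where 1.05% of all genes were higher on the adjusted p alone. Without the Wnt5a + anti-Ptk7 library numbered 1, which stood at 618 CPM, the Wnt5a value was at its lowest, 0.32 (edgeR adjusted p = 0.0339), and the pass was lost when only the groups compared were fitted (adjusted p 0.111). The pass in SCM over complete media was lost without the SCM + IgG library numbered 1 (adjusted p 0.0507). The antibody effects in Wnt5a and SCM differed by log2 0.18 (SE 0.142, edgeR adjusted p = 0.999). The one Acsl3 difference that was called lay between Wnt5a + anti-Ptk7 and QCM + IgG, where it rose 1.96-fold (log2 0.97, SE 0.102, edgeR adjusted p = 1.59e-08) without overlap, where 8.78% of all genes were called higher. That contrast changes medium, ligand and antibody together, and in it 4 Paneth, 3 enteroendocrine and 2 goblet markers of 6 each were lower, against 5.92% of all genes called lower, and 3 of 5 tuft markers were higher. The part of these cell types in the Acsl3 level was not tested.

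Slc27a4, the fatty acid transport protein most studied in enterocytes, had similar differences from complete media in QCM, SCM and Wnt5a, and passed the adjusted p in SCM and Wnt5a. Its libraries ran from 57.2 to 74.1 CPM in complete media (median 67.5), 65.0 to 113 in QCM (median 80.1), 71.8 to 100.04 in SCM + IgG (median 81.4) and 76.0 to 88.7 in Wnt5a + IgG (median 86.5). Only the Wnt5a libraries were free of overlap with complete media. The log2 differences were 0.33 for QCM (SE 0.104, edgeR adjusted p = 0.150), 0.33 for SCM (SE 0.104, edgeR adjusted p = 0.0313) and 0.35 for Wnt5a (SE 0.104, edgeR adjusted p = 0.0145), all under 1.5-fold. The SCM pass was lost without a filter on low counts (adjusted p 0.0596), without the SCM + IgG library numbered 3 or 5 and without the complete media library numbered 3, 4, 5 or 6 (adjusted p 0.0505 to 0.101). The Wnt5a pass was lost without the complete media library numbered 4 (adjusted p 0.0519). SCM and QCM differed by less than 1 SE. With the antibody the libraries ran from 82.6 to 107 CPM in SCM and from 88.6 to 115 in Wnt5a, and neither difference over IgG passed (edgeR adjusted p = 0.420 and 0.273).

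Acsl5, Acsl1 and Acsl4 were not called in any of the comparisons with complete media, QCM or IgG. Acsl5 ran from 560 to 755 CPM in complete media, 548 to 633 in QCM, 581 to 728 in SCM + IgG and 605 to 747 in Wnt5a + IgG, with overlap throughout. Its log2 difference over complete media was 0.08 in SCM (95% interval -0.08 to 0.24) and 0.11 in Wnt5a (95% interval -0.04 to 0.27), so that a change of 1.5-fold lies outside both intervals. Acsl1 ran from 89.4 to 129 CPM in complete media, 75.7 to 109 in SCM + IgG and 79.9 to 119 in Wnt5a + IgG, with log2 differences of -0.18 (95% interval -0.38 to 0.03) and -0.13 (95% interval -0.34 to 0.08). Its antibody differences were 0.19 in SCM and 0.16 in Wnt5a, with intervals that include 0. Acsl4, at 10.2 to 24.97 CPM in complete media and 15.9 to 35.2 in Wnt5a + IgG, had wider intervals, from -0.40 to 0.41 in SCM and from -0.18 to 0.63 in Wnt5a, so that a change of 1.5-fold in Wnt5a cannot be set aside at this spread.

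**Figure D3:**
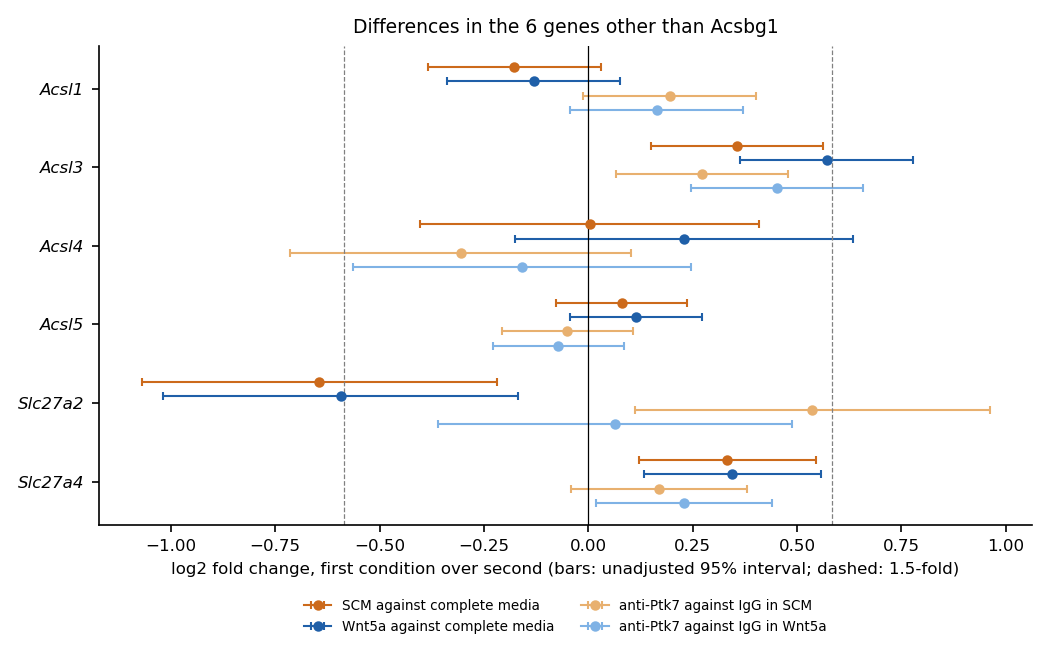
Fitted log2 fold changes of the 6 genes other than Acsbg1 with unadjusted 95% intervals, for SCM and Wnt5a against complete media and for anti-Ptk7 against IgG in each medium. Only the Slc27a2 points for SCM (-0.64) and Wnt5a (-0.59) lie beyond the dashed 1.5-fold lines, and the 4 Acsl3 points lie between 0.27 and 0.57.

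In the remaining comparisons no gene of the 6 was called by edgeR's quasi-likelihood test. For QCM against complete media 0 of 6 were called (1 at an unadjusted p under 0.05, Slc27a4), against 0.374% of all genes called. For SCM against QCM 0 of 6 were called (3 at an unadjusted p under 0.05, Acsl3, Acsl5 and Slc27a2), against 0.903% of all genes. For Wnt5a against SCM 0 of 6 were called (1 at an unadjusted p under 0.05, Acsl3), against 0.690%. For anti-Ptk7 against IgG 0 of 6 were called in SCM, with 2 at an unadjusted p under 0.05 (Acsl3 and Slc27a2) and 1.23% of all genes called. In Wnt5a it was also 0 of 6, with 2 at an unadjusted p under 0.05 (Acsl3 and Slc27a4) and 0.884% of all genes called. For the difference between the 2 antibody effects 0 of 6 were called, with 0 at an unadjusted p under 0.05, and 0.00% of all genes were called although 602 had an unadjusted p under 0.05. Voom with limma and DESeq2 also called 0 of 6 in each of these 6 comparisons. SCM and Wnt5a share the complete media libraries, and the antibody contrasts share the IgG libraries with them, so these counts are not independent of each other.

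Library by library, a higher Acsbg1 level went with a lower Slc27a2 level. On the log2 CPM scale Pearson's r over the 36 libraries was -0.63, and it was -0.63 as well after each group's mean was removed, so the relation was also present among cultures of the same group. Without the 6 libraries numbered 1 the values over 30 libraries were -0.63 and -0.55. Acsbg1 and Acsl3 had r = 0.81 over all libraries but 0.25 within groups, and 0.78 and -0.05 without those numbered 1. For Acsl5 the values were 0.52 over all libraries and 0.46 within groups, and 0.50 and 0.28 without those numbered 1. For Acsl4 they were 0.24 over all libraries and 0.10 within groups. Acsl1 went from -0.21 over all libraries to -0.44 within groups, and Slc27a4 turned from 0.47 to -0.24. These are descriptions over libraries that share groups and possibly mice.

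**Figure D4:**
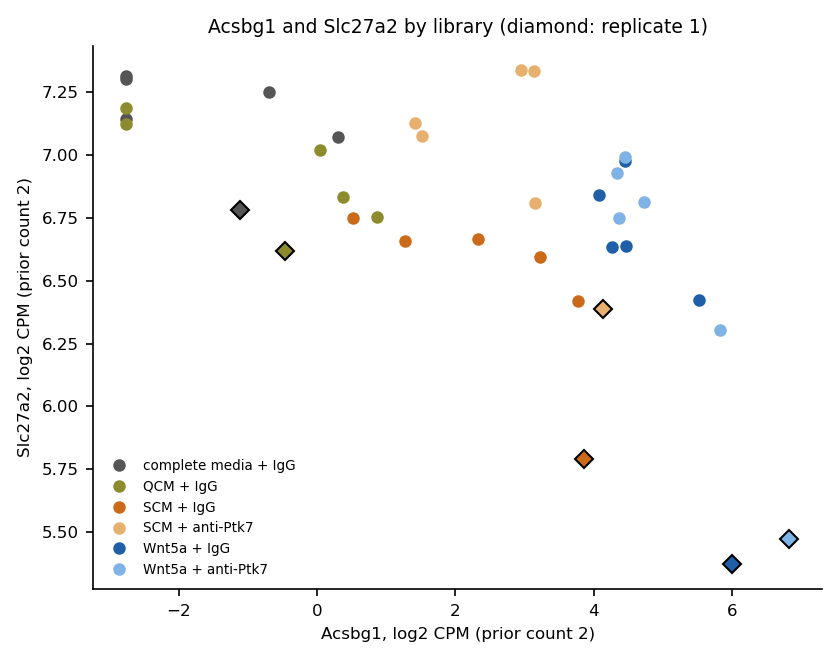
Slc27a2 against Acsbg1 (both log2 CPM) in 36 libraries colored by group, where diamonds mark the libraries numbered 1. The points run from upper left (complete media and QCM) to lower right, and the diamonds of SCM + IgG, Wnt5a + IgG and Wnt5a + anti-Ptk7 are the 3 lowest points, at 55.2, 41.3 and 44.3 CPM of Slc27a2.

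The genes whose log2 CPM followed that of Acsbg1 most closely over the 36 libraries were Vill, F3, Clu, Ctse and Cwh43, out of 12456 genes ranked. Vill, a villin-like actin-binding protein, had r = 0.96 over all libraries and 0.81 within groups, and its mean went from 5.33 ± 3.41 CPM in complete media to 134 ± 76.5 in Wnt5a + IgG (SD, n = 6 each). F3, tissue factor, had r = 0.95 and went from 77.6 ± 39.8 to 889 ± 451 CPM. Clu, the secreted chaperone clusterin, had r = 0.95 and went from 51.0 ± 29.8 to 3775 ± 2019 CPM. Ctse, the aspartic protease cathepsin E, had r = 0.95 and went from 0.217 ± 0.436 to 61.9 ± 42.9 CPM, with counts absent in some complete media libraries as for Acsbg1. Cwh43, a protein of lipid anchor remodelling, had r = 0.94. With Spearman's rank correlation 4 of these 5 stayed among the 5 highest, and the same number did so with a prior count of 0.5. With the antibody in SCM, the means of Clu (623 against 1211 CPM), F3 (376 against 477) and Cwh43 (108 against 145) were lower than with IgG. Those of Vill (47.8 against 46.9 CPM), Ctse (8.83 against 9.17) and Acsbg1 (7.94 against 7.59) were nearly level, values given without a test because the genes were chosen on these libraries.

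**Figure D5:**
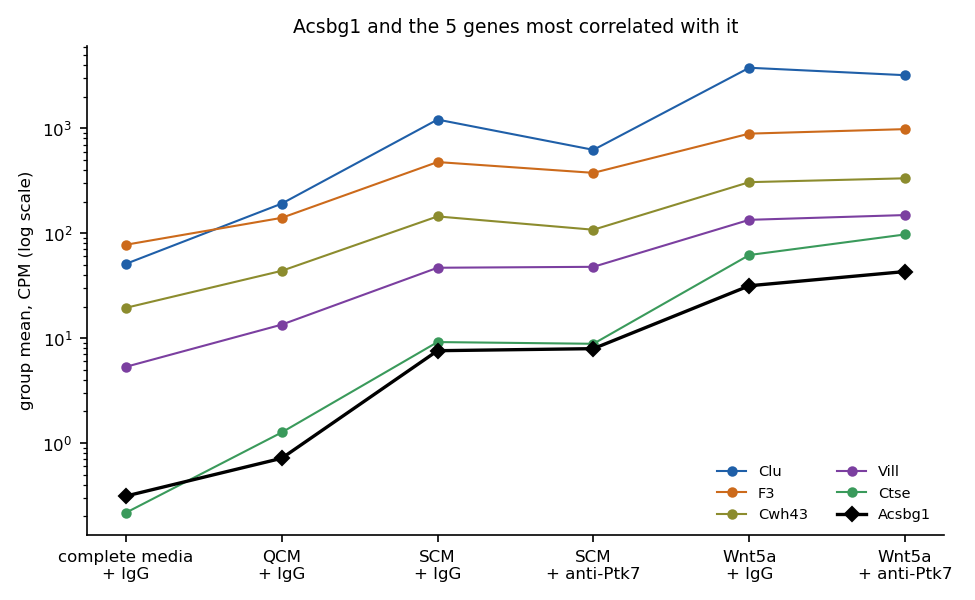
Group mean levels (CPM, log scale) of Acsbg1 and of the 5 genes most correlated with it over 36 libraries. All 6 lines are higher in Wnt5a + IgG than in complete media, and between SCM + IgG and SCM + anti-Ptk7 the mean goes from 1211 to 623 CPM for Clu, from 477 to 376 for F3 and from 7.59 to 7.94 for Acsbg1.

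The rest of the acyl-CoA synthetase family held no gene called higher in SCM or Wnt5a. Of 18 further genes listed, 17 were found, 10 were detected and 12 were tested. By the same edgeR calls 0 of 12 changed in SCM (4 at an unadjusted p under 0.05, and 0 by voom with limma or DESeq2) and 1 fell in Wnt5a, Acss1, a mitochondrial acetyl-CoA synthetase (127 ± 16.3 CPM in complete media and 78.8 ± 15.9 in Wnt5a + IgG, SD, n = 6 each, log2 -0.69, edgeR adjusted p = 0.000301). Over all genes 6.08% were called in SCM, and 10.2% were called and 1.88% called lower in Wnt5a, so nothing particular to the family is read from these counts. Acsbg2, the other bubblegum gene matched, was at 0 in all 36 libraries, as were Acsm1, Acsm2 and Acsm4. The median log2 difference of this list was -0.25 in SCM and -0.04 in Wnt5a, against 0.01 for all genes tested in both.

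Genes that act next to the synthetases were counted beside the shares of all genes called higher, 4.96% in SCM and 8.29% in Wnt5a, and called lower, 1.12% and 1.88%. Calls over all genes were thus mostly higher too, and nothing particular to these lists is read from their direction. Of 16 thioesterases, which release the fatty acid again, 12 were tested, 2 rose in SCM and 3 in Wnt5a, 2 of them a pair of close copies. Acot9 went from 9.03 ± 3.58 to 24.5 ± 9.19 CPM in Wnt5a + IgG (SD, n = 6 each, log2 1.45, edgeR adjusted p = 0.000530) and to 20.9 ± 7.21 in SCM + IgG (log2 1.21, edgeR adjusted p = 0.00556). Acot10 moved alongside (1.26 in SCM and 1.34 in Wnt5a, log2), but it is a close copy of Acot9 between which reads could be split, and the pair is uncertain. Acot11 rose in Wnt5a (log2 1.08). The list medians were 0.22 in SCM and -0.02 in Wnt5a.

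Of 12 genes for fatty acid and acyl-CoA binding and uptake, 10 were tested and 1 rose in each of SCM and Wnt5a, Fabp1, the liver-type fatty acid binding protein, from 244 ± 27.5 CPM in complete media to 518 ± 68.6 in SCM + IgG (log2 1.09, edgeR adjusted p = 7.71e-06) and 390 ± 97.0 in Wnt5a + IgG (log2 0.68). Fabp1 rose in QCM as well (log2 0.76, edgeR adjusted p = 0.00718). Fabp5, another binding protein, fell with the antibody in SCM (13.5 ± 4.06 to 8.11 ± 0.98 CPM, log2 -0.74, edgeR adjusted p = 0.00801). The list medians were 0.13 in SCM and 0.04 in Wnt5a.

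Of 22 genes of glycerolipid synthesis, where acyl-CoA is used, 20 were tested, 3 rose in SCM, and 5 rose and 1 fell in Wnt5a (over all genes 4.96% rose in SCM, and 8.29% rose and 1.88% fell in Wnt5a). The Wnt5a count of 6 was 4 with voom on quantile-normalised values. Lpcat4, a lysophospholipid acyltransferase, went from 105 ± 27.9 CPM to 232 ± 64.1 in SCM + IgG (log2 1.15, edgeR adjusted p = 0.000786) and 287 ± 89.9 in Wnt5a + IgG (log2 1.45). Plin2, which coats lipid droplets, went from 83.3 ± 4.91 to 145 ± 29.5 in SCM + IgG (log2 0.80) and 202 ± 61.0 CPM in Wnt5a + IgG (log2 1.27, edgeR adjusted p = 2.68e-06). Agpat2, which makes phosphatidic acid, rose by log2 1.09 and 1.13. The list medians were 0.15 in SCM and 0.14 in Wnt5a.

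Of 30 genes of fatty acid oxidation, 29 were tested. Against complete media 1 rose in SCM, 2 in Wnt5a and 1 in QCM, and none fell in SCM or Wnt5a. Over all genes 4.96% rose and 1.12% fell in SCM, 8.29% rose and 1.88% fell in Wnt5a, and 0.355% rose in QCM. The list medians were -0.01 in SCM and -0.03 in Wnt5a. Acaa1b, a peroxisomal thiolase with a close paralog that could share its reads, rose in Wnt5a (log2 0.69). Of 19 genes of elongation and desaturation 14 were tested and 0 were called by edgeR, voom with limma or DESeq2 in SCM or Wnt5a, with 6 and 7 at an unadjusted p under 0.05 and medians of -0.13 and -0.07. Of 16 regulators of fatty acid genes 15 were tested, 1 rose in SCM and 2 in Wnt5a, with medians of -0.19 in each, beside 4.96% and 8.29% of all genes called higher. Creb3l3, a membrane-bound transcription factor of gut and liver, rose by log2 1.32 and 0.89 (and 0.93 in QCM), and Pparg, a nuclear receptor for fatty acids, rose by 0.94 in Wnt5a. Fabp1 and Creb3l3 had higher mean levels in SCM than in Wnt5a, the reverse of the order for Acsbg1, but the differences between SCM and Wnt5a did not pass (edgeR adjusted p = 0.127 and 0.183).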

How the data were processed

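The files were analysed as deposited: 1 table of read counts per gene for each of 36 libraries, made by the authors from single-end Smart-Seq reads aligned with GSNAP to mm10 (submitters' processing notes) and counted within coding sequence; the annotation and strand setting are not given in the sources used here. A series-wide table was not used. Groups came from the sample titles. Counts were scaled by TMM and tested with edgeR 4.0.16 (quasi-likelihood, 1 model of 6 group means over 15497 genes kept by filterByExpr, 30 residual degrees of freedom) with Benjamini-Hochberg adjustment in R 4.3.3, with calls as defined in the report. log2 CPM used a prior count of 2. Alternatives used limma 3.58.1 (voom), DESeq2 1.42.0, other filters, a replicate block and single libraries left out. Replicate pairs differed beyond sampling noise (chi-square per gene at least 7.25). The test was tried on simulated data. Members, lists and tests were chosen with earlier results of these data known. Other list genes are named if called in SCM, Wnt5a or an antibody contrast, at most 3 per list and contrast. Positions and coding lengths are from a GRCm38 annotation that may differ from the authors'. Marker lists for cell types were counted the same way. Some genes of the lists are not reported here.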

Additional observations from a re-analysis of the deposited data

Results flagged for a closer look

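In 42 groups of 6 libraries (7 genes in 6 groups), a library was set apart when its gap to the nearest other, on the log2 scale, exceeded the share of the group's range that Dixon's test allows. This occurred 3 times, each time in a library numbered 1. Chance sets apart about 1 in 20 groups and the 42 groups share libraries, so 3 is not read as an excess. Acsl3 in Wnt5a + anti-Ptk7 replicate 1 stood at 618 CPM, above the next library at 419. Slc27a2 stood at 55.2 CPM in SCM + IgG replicate 1, below the next at 85.4. Slc27a2 also stood at 41.3 CPM in Wnt5a + IgG replicate 1, below the next at 85.8.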

How the results depend on the processing

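The number of the 6 genes called in SCM against complete media (1, Slc27a2) was 0 without a filter on low counts, 3 without the 1.5-fold limit (Acsl3 and Slc27a4 added), and 0 to 1 with single libraries left out. In Wnt5a (1, Slc27a2) it was 0 with a minimum of 10 counts in every library, 0 with all 6 libraries numbered 1 left out, 3 without the fold limit, and 0 to 2 with single libraries left out. For anti-Ptk7 in Wnt5a it was 1 (Acsl3) without the fold limit. Acsbg1, given without a test, was log2 3.98 in SCM + anti-Ptk7 against QCM with voom and limma on quantile-normalised values and 4.14 with TMM. Its difference between Wnt5a + anti-Ptk7 and SCM + anti-Ptk7 was log2 2.44 when only the groups compared were fitted and ran from 1.87 to 2.84 with single libraries left out. The cause of these shifts was not tested. Differences of the 6 genes within 1 SE of 0 were not recomputed; the others recomputed kept their direction under these alternatives, and the untested antibody differences of Acsbg1 did not.

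The labels number the cultures 1 to 6 in each group without saying what a number shares. Of 90 pairs with the same number, 34 had deviations correlated above 0.1 (mean r 0.092, against -0.018 for other pairs). The library numbered 1 was also the lowest for Slc27a2 in every group. The main fit did not pair the numbers, so its p-values take no account of a shared origin, which the labels neither state nor exclude. In SCM against QCM the replicate block called 425 genes higher and 71 lower, against 118 and 22 in the main fit. With the replicate block edgeR called the same gene, Slc27a2, in SCM and in Wnt5a (1 each), at adjusted p 2.88e-05 and 2.99e-05. Its antibody difference in SCM was log2 0.54 (edgeR adjusted p 0.00210), higher with the antibody at 6 of 6 numbers. With the same block Acsbg1 over QCM + IgG was log2 3.39 in SCM + anti-Ptk7 and 5.79 in Wnt5a + anti-Ptk7, given without a test. Low counts limit the Acsbg1 values in complete media and QCM, which hold at most 14 and 25 reads per library. Reads were not counted by molecular identifiers.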
